A study of Mus musculus with 51 samples.

Results

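The glucocorticoid receptor response genes described here are 10 genes: the receptor gene Nr3c1, the enzyme gene Hsd11b1, and the target genes Fkbp5, Tsc22d3, Zbtb16, Klf9, Sgk1, Ddit4, Cdkn1a and Tat. They were chosen by name, with earlier results of these data known, and their rows were read from 6 tissue tables that list 14606 genes between them. The tables hold mRNA sequencing of 51 libraries from male C57Bl6 mice with diet-induced obesity. The mice had undergone either a sham operation or a Roux-en-Y gastric bypass (RYGB) 9 weeks before. RYGB leads food from a small gastric pouch into the jejunum and past the duodenum. After surgery all mice received a liquid elemental diet and later returned to a high-fat diet. Sham animals were given limited rations that kept their weight at that of the RYGB animals. All were fasted overnight and killed at 10 am. Effects of the operation and of these limited sham rations cannot be told apart. The tissues were scraped villi of duodenum (5 sham and 4 RYGB libraries), jejunum (5 and 4) and ileum (5 and 2), liver (4 and 5), white adipose tissue (WAT, 5 and 4) and gastrocnemius muscle (4 and 4). The libraries came from 5 sham animals (W3, W11, W12, W14 and W15) and 5 RYGB animals (R1 to R5), and most animals gave several tissues, so the tissues are not independent of each other.

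Glucocorticoids, corticosterone in the mouse, are adrenal steroids that rise in fasting and stress and follow the time of day. The hormone binds the glucocorticoid receptor, which leaves its chaperones, enters the nucleus and binds DNA at a palindrome of hexamers. It raises genes that feed back on the receptor (Fkbp5), restrain inflammation (Tsc22d3), alter growth and ion transport (Sgk1, Ddit4, Cdkn1a) and drive breakdown of amino acids in liver (Tat). Most of these genes also answer other signals, among them insulin, hypoxia and DNA damage, and corticosterone itself was not measured in the data used here.

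Promoter sequence was available in the RefSeq table (GRCm38.p6) for 8 of the 10 genes, with 16 promoters in all, and was searched on both strands over the 250 bases before each start. The hexamer AGAACA, or its reverse complement TGTTCT, lay in 4 of these 16 promoters, from Sgk1 and Tsc22d3, against 16.1% of the 32851 promoters in the table. The palindrome AGAACA, any 3 bases, TGTTCT, which contains both hexamers, was found in 1 member promoter, that of an inner start site of Sgk1, and in 3 promoters in the whole table (0.00913%). The Sgk1 window (chr10:21993640-21993889, plus strand) holds no base of an annotated exon and lies within 5 of the 13 annotated Sgk1 transcripts. The Tsc22d3 stretch (chrX:140600660-140600772, minus strand) is the 113 bases of its window outside annotated exons. They are shown because, among the 8 genes searched, Sgk1 alone held the full palindrome in these windows and Tsc22d3 was the other with a hexamer. Capitals mark each hexamer, and the palindrome of Sgk1 begins 189 bases before the start site.
Sgk1: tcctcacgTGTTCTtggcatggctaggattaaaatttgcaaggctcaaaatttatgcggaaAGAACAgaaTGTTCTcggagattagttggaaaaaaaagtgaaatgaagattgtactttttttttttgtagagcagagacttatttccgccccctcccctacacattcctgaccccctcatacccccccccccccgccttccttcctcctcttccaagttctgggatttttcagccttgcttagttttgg
Tsc22d3: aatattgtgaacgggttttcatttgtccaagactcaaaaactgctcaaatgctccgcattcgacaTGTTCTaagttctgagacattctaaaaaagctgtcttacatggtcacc
A match describes the letters only; binding of the receptor was not measured.

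Values are read counts scaled to library size (CPM) as the authors deposited them, and each library summed to between 978879.0 and 993560.1 over the genes listed. The number of reads could be worked out for 5 liver libraries only, at 4224757 to 5128205, and the depth of the other 46 libraries is unknown. These 5 livers are called shallow (sham W11 and W14, RYGB R2, R3 and R4). The other 4 are called deeper because their low CPM values showed no steps from which reads could be counted. Of these, R1, W15 and W3 held 179, 255 and 240 genes at 0 CPM and R5 held 16, against 24 to 60 in the shallow ones. Whether the depth groups differ in more than depth was not tested. The defining markers of each labelled tissue were present. In duodenum, pancreatic acinar transcripts (16 of 18 markers listed) made up 0.00707% to 8.77% of the sham libraries and 0.0027% to 1.5% of the RYGB libraries. The ileum sham library of W15 stood apart, with a summed level of crypt and proliferation markers of 4629.4 CPM against a sham median of 48.2. In WAT the hepatocyte markers (8 of 10 listed) summed to 506.7 to 1602.4 CPM in sham and 2833.8 to 16515 CPM in RYGB libraries, the highest in R2. For the muscle RYGB libraries, a label field that names the sham operation disagrees with the title and the surgery label, which were followed. In bulk tissue, fewer cells of a type and less RNA per cell cannot be told apart.

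Of 60 possible entries (10 genes in 6 tables) 54 were listed; 6 of the genes were in every table. A gene missing from a table was below the authors' filter of 1 CPM: Zbtb16, Hsd11b1 and Tat in duodenum, Zbtb16 in jejunum, Ddit4 in liver and Tat in muscle. A difference is the RYGB mean less the sham mean of log2(CPM + 1), given ± its standard error. This scale understates changes of genes with low CPM. A gene is called at a Benjamini-Hochberg adjusted p below 0.05 over all genes of the table (limma). In jejunum 4 of 9 members were called, 3 higher (Ddit4, Cdkn1a, Fkbp5) and 1 lower (Nr3c1), where 12.6% of all genes were called, 6.32% higher and 6.29% lower. In liver 1 of 9 was called (Fkbp5, higher) against 4.63% of all genes (2.03% of genes higher), and in WAT 1 of 10 (Tat, lower) against 40.6% (26.3% of genes lower). Tat entered the WAT table only through sham libraries, as every RYGB library was below the filter, so its direction is not independent of the filter. No member was called in duodenum (0.348% of all genes called), ileum (0%) or muscle (0%). At an unadjusted p below 0.05, 438 of 12041 genes (3.64%) passed in ileum and 812 of 11594 (7%) in muscle; among them were Fkbp5 in ileum and Sgk1 in muscle. In duodenum 22.7% of all genes and no member passed at that level. The groups of no member were separate in duodenum, ileum, WAT or muscle, where 7.58%, 8.09%, 33.6% and 3.86% of all genes had separate groups.

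The members' median difference was 0.88 in jejunum, 0.79 in liver, 0.46 in muscle, 0.38 in duodenum, 0.23 in ileum and -0.19 in WAT. The medians of all genes listed in these tables were 0.08, 0.26, -0.0027, 0.15, -0.09 and -0.16 in that order. In WAT the members' median lay near that of all genes, while members were called less often than the share of all genes given above; that difference in share was not tested. The median of all genes on the CPM scale, minus that after median-of-ratios scaling, was 0.16 in duodenum, 0.18 in liver, -0.10 in ileum and -0.17 in WAT, and members are to be read against these shifts.

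**Figure D1:**
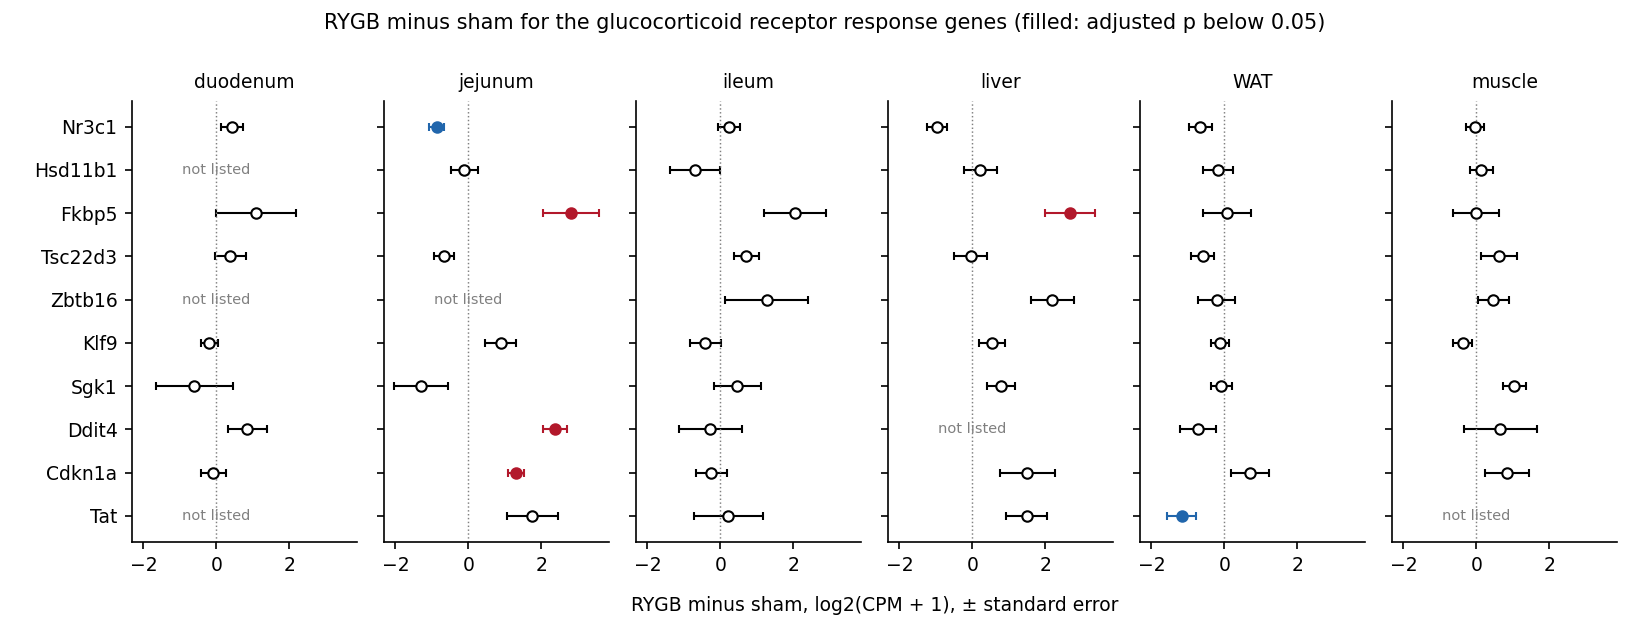
Difference between RYGB and sham (x axis, log2(CPM + 1), with standard error) for each of the 10 genes (y axis) in the 6 tissues; filled points passed an adjusted p of 0.05 and genes below the authors' filter read "not listed". Fkbp5 was called in jejunum and liver, Ddit4, Cdkn1a and Nr3c1 in jejunum, and Tat in WAT.

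Nr3c1 (ENSMUSG00000024431) encodes the glucocorticoid receptor itself, and its transcript was lower after RYGB in jejunum. The jejunal RYGB libraries of R1, R2, R4 and R5 held 189.0, 171.3, 179.1 and 297.7 CPM. The sham libraries of W11, W12, W14, W15 and W3 held 412.0, 396.3, 404.4, 406.9 and 273.5 CPM. The groups overlapped only through W3 and R5, and the other 4 sham libraries lay above every RYGB library. Nr3c1 fell by 0.87 ± 0.20 on the log2 scale (adjusted p = 0.0215, limma). The call was lost without sham W11, W12 or W15 or without RYGB R1 or R4, with adjusted p between 0.0552 and 0.0614 there.

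In liver the receptor transcript showed a difference of similar size that missed the threshold. RYGB livers (R1 to R5) held 295.7, 211.4, 202.3, 273.0 and 302.3 CPM of Nr3c1, and sham livers (W11, W14, W15, W3) held 379.1, 452.8, 669.9 and 525.7 CPM. Every RYGB liver lay below every sham liver, a pattern that 8.01% of all liver genes showed; the groups of 2 of 9 members did not overlap in liver, against 12.3% of all genes. The difference was -0.97 ± 0.27 (adjusted p = 0.0568). It was -0.87 among the shallow and -0.99 among the deeper libraries, neither of them called (adjusted p = 0.0853 and 0.103), and -0.92 with the depth group as a term in the fit, which called it (adjusted p = 0.0162).

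Elsewhere Nr3c1 was not called. In WAT the sham libraries spanned 275.3 to 332.5 CPM, while RYGB R1, R2, R3 and R4 held 166.5, 90.3, 382.2 and 214.4 CPM, so that R3 was the highest and R2 the lowest of all 9 libraries. The WAT difference was -0.66 ± 0.32 (adjusted p = 0.123), and without R3 it was -0.997 (adjusted p = 0.00682). R3 was the RYGB library that ran the other way, so leaving it out favours a call. Nothing is read from that fit, and WAT fits with a library left out called 3936 to 6151 of 12690 genes. In duodenum (0.43 ± 0.30), ileum (0.24 ± 0.31) and muscle (-0.04 ± 0.24) no call was made. The jejunal difference was lower than the duodenal one in a joint fit over the animals that gave both segments (5 sham and 3 RYGB), by -1.16 ± 0.26 (adjusted p = 0.0369, limma, with 2.4% of 10663 genes called); this call was lost with median-of-ratios scaling (adjusted p = 0.121) and without 6 of the 8 animals in turn.

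Hsd11b1 (ENSMUSG00000016194) encodes the enzyme that regenerates active corticosterone from its inert 11-keto form inside cells. It was abundant in WAT and liver and near the detection floor in gut. In sham mice the mean was 518 ± 118 CPM (SD, n = 5) in WAT, 466 ± 247 (n = 4) in liver, 14.6 ± 3.08 (n = 4) in muscle and 1.18 ± 1.15 (n = 5) in jejunum. No RYGB difference of Hsd11b1 was called, and the differences lay between -0.70 (ileum, from values of 0 to 3.5 CPM) and 0.21 (liver). In WAT the RYGB libraries split, with 740.9 and 949.5 CPM in R1 and R2 and 243.7 and 241.7 in R3 and R4, on either side of the sham range of 380.2 to 667.4. In liver R2 held the least of the RYGB libraries, 215.9 CPM, against 443.1 to 752.4 in the other 4.

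Fkbp5 (ENSMUSG00000024222, chr17:28399094-28517527 on GRCm38) encodes a co-chaperone that lowers the hormone affinity of the receptor, and it is among the most sensitive targets of glucocorticoids in many tissues. It rose after RYGB in jejunum and liver, the tissues where sham levels were lowest. Jejunal RYGB libraries (R1, R2, R4, R5) held 65.6, 241.3, 7.8 and 40.9 CPM and sham libraries (W11, W12, W14, W15, W3) held 4.2, 8.6, 3.7, 5.5 and 10.4 CPM. Of the RYGB libraries only R4 fell within the sham range. The difference was 2.81 ± 0.76 (adjusted p = 0.0384, limma). It held without R2 (2.04, adjusted p = 0.0484) and was lost with median-of-ratios scaling (adjusted p = 0.0521) and without sham W11, W12, W14 or W15 or RYGB R1 (adjusted p between 0.0758 and 0.0923).

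In liver the RYGB libraries (R1 to R5) held 20.1, 90.3, 38.1, 10.2 and 11.9 CPM of Fkbp5, and the sham libraries (W11, W14, W15, W3) held 7.9, 5.9, 2.1 and 0.4 CPM. Every RYGB liver lay above every sham liver, as it did for 4.34% of all liver genes. Fkbp5 rose by 2.66 ± 0.68 (adjusted p = 0.0478). The difference was 2.13 within the shallow libraries (adjusted p = 0.112) and 2.99 within the deeper ones (adjusted p = 0.0218). The call was lost without R2 (2.20, adjusted p = 0.1), R3 or R4, without sham W14, W15 or W3, and with a pseudocount of 0.1 (adjusted p = 0.0541); with the depth group in the fit it remained (2.52, adjusted p = 0.00799).

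In the other 4 tissues Fkbp5 was not called. The RYGB libraries lay both above and below the sham range in duodenum, WAT and muscle, and above or within it in ileum. Duodenal RYGB libraries (R2, R3, R4, R5) held 392.5, 18.4, 4.8 and 42.0 CPM against 7.0 to 36.8 in sham, a difference of 1.09 ± 1.09. In ileum R2 and R5 held 193.0 and 18.7 CPM against 6.8, 15.2, 10.5, 32.6 and 14.7 in sham (2.04 ± 0.85; 2.33 without the W15 library that stood apart, adjusted p = 0.230). WAT showed 136.7, 265.0, 35.4 and 17.8 CPM in R1 to R4 against 37.2 to 101.2 in sham (0.07 ± 0.66). Muscle showed 65.1, 263.4, 26.9 and 28.5 CPM in R1, R2, R4 and R3 against 46.0 to 85.8 in sham (-0.01 ± 0.63). In WAT and muscle, R3 and R4 thus lay below every sham library while R1 in WAT and R2 in both lay above them.

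The RYGB animal R2 had the highest Fkbp5 of all libraries in each of the 6 tissues. Its level was 9.35 times that of the next library in duodenum, 3.68 times in jejunum, 5.92 times in ileum, 2.37 times in liver, 1.94 times in WAT and 3.07 times in muscle. Over all genes, R2 was the highest library for 29.0% of those listed in duodenum, 6.22% in jejunum, 6.64% in ileum, 7.09% in liver, 14.7% in WAT and 23.6% in muscle. R2 was the highest library in 29 of the 54 member entries (53.7%): all 6 of Fkbp5, 4 of 5 of Ddit4, 3 of 4 of Zbtb16 and of Tat, 3 of 6 of Sgk1 and of Cdkn1a, 2 of 5 of Hsd11b1, 2 of 6 of Tsc22d3 and of Klf9, and 1 of 6 of Nr3c1. By tissue this was 9 of 9 members in muscle, 6 of 9 in liver, 6 of 10 in WAT, 3 of 9 in jejunum, 3 of 10 in ileum and 2 of 7 in duodenum. Only in duodenum was the share of members (28.6%) near that of all genes. R2 is 1 animal, singled out after its values were seen, so these counts describe it and were not tested. The same shares were not worked out for the other animals.

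**Figure D2:**
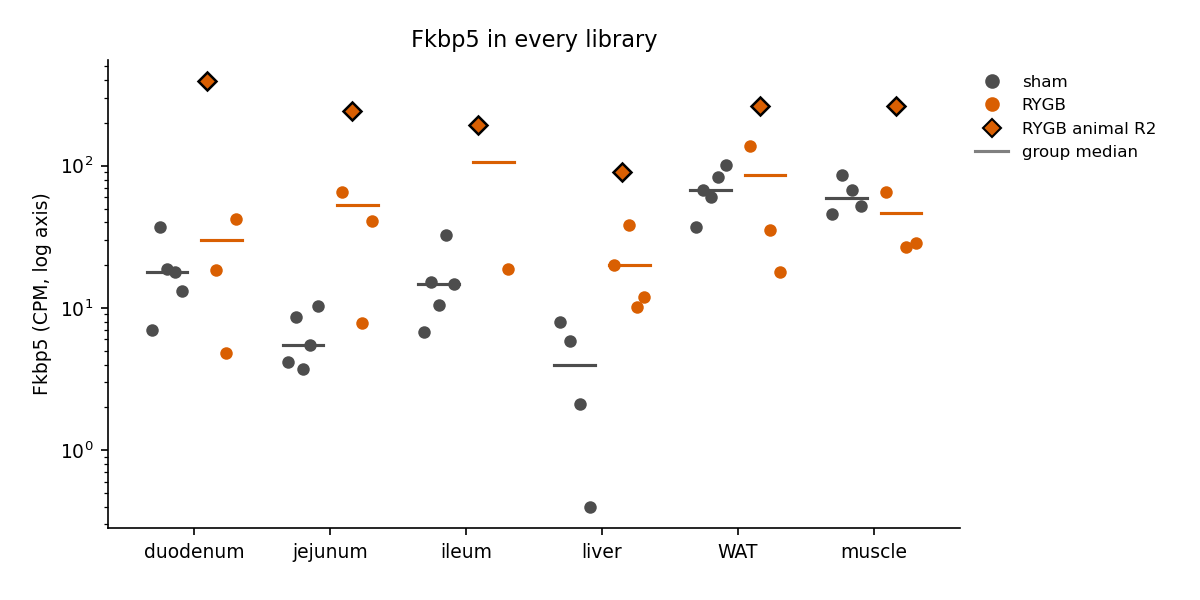
Fkbp5 in CPM (log axis) in each library of the 6 tissues, sham in grey and RYGB in orange, with lines at the group medians and diamonds for the RYGB animal R2. R2 was highest in every tissue, from 90.3 CPM in liver to 392.5 in duodenum, and the RYGB and sham points are fully separate only in liver.

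Tsc22d3 (ENSMUSG00000031431), also known as GILZ, encodes a leucine zipper protein that restrains inflammatory signalling. It was called in no tissue, and its direction differed between them. In jejunum the RYGB libraries (R1, R2, R4, R5) held 74.4, 75.9, 50.2 and 155.3 CPM against 117.2 to 163.0 in sham, so 3 of 4 lay below every sham library, with a difference of -0.67 ± 0.27 (adjusted p = 0.122). Without R5 the difference was -0.98 (adjusted p = 0.00459). R5 was the RYGB library that lay apart from the others, so leaving it out favours a call. Nothing is read from that fit, and jejunal fits with a library left out called 484 to 2258 of 11021 genes. In WAT the difference was -0.60 ± 0.31 (adjusted p = 0.139). R2 held 252.4 CPM there and R1, R3 and R4 held 141.4, 85.1 and 113.5, against 125.6 to 271.7 in sham. Without R2, the highest RYGB library, the difference was -0.89 (adjusted p = 0.0207), and nothing is read from that fit either.

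In muscle Tsc22d3 stood at 415.3, 1512.4, 418.0 and 292.5 CPM in R1, R2, R4 and R3 and at 256.6, 376.7, 232.7 and 610.5 in sham W11, W12, W15 and W3. R2 was far above the other 7 libraries, which overlapped (0.62 ± 0.49). The muscle difference exceeded that of WAT by 1.23 ± 0.36 over 4 sham and 4 RYGB animals (adjusted p = 0.0454, with 12.8% of 11092 genes called); the call was lost with median-of-ratios scaling (1.08, adjusted p = 0.0736) and without R1, R2, R4, W11, W12 or W15 in turn (0.975 to 1.36, adjusted p from 0.0674 to 0.132). Duodenum (0.38 ± 0.43), ileum (0.71 ± 0.35) and liver (-0.05 ± 0.45) gave no call.

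Zbtb16 (ENSMUSG00000066687), also known as PLZF, encodes a zinc finger repressor that is strongly inducible by glucocorticoids in many cells. Liver showed the clearest difference. RYGB livers (R1 to R5) held 26.8, 38.8, 7.5, 3.7 and 19.0 CPM and sham livers (W11, W14, W15, W3) held 1.5, 4.5, 1.6 and 2.7 CPM, so that only R4 lay within the sham range. The difference of 2.19 ± 0.60 just missed the threshold (adjusted p = 0.0526). It passed with median-of-ratios scaling (2.02, adjusted p = 0.0496), with a mean CPM of at least 5 (adjusted p = 0.0482) and with the depth group as a term (2.23, adjusted p = 0.0161). It did not pass with a pseudocount of 0.1, a replicate block or array weights. With a library left out it ran from 1.85 to 2.62 and passed only without R1, so it also missed without R2, the highest library. Within the depth groups it was 1.65 in the shallow (adjusted p = 0.214) and 2.93 in the deeper libraries (adjusted p = 0.0154).

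In WAT and muscle, where sham levels of Zbtb16 were 121 ± 41.8 CPM (SD, n = 5) and 113 ± 19.2 (n = 4), no difference was called (-0.21 ± 0.51 and 0.46 ± 0.42). Muscle R2 held 396.5 CPM, against 70.6 to 149.5 in the other 7 libraries. The WAT libraries of R1 to R4 held 232.7, 131.2, 109.0 and 28.1 CPM. In ileum, values of 0 to 17.0 CPM allowed no call.

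Klf9 (ENSMUSG00000033863), a Krüppel-like transcription factor induced by glucocorticoids and by thyroid hormone, was not called in any tissue. Its differences ran from -0.41 ± 0.42 in ileum to 0.88 ± 0.41 in jejunum. In jejunum R1 and R4 held 69.5 and 49.5 CPM, R2 and R5 held 15.0 and 18.7, and sham held 11.4 to 20.4 (adjusted p = 0.183). The 2 high libraries were thus R1 and R4, whereas Fkbp5 was highest in R2. In liver R1 and R5 held 416.8 and 325.0 CPM, and R2, R3 and R4 held 175.3, 147.6 and 145.0, within the sham range of 119.7 to 197.2. R1 and R5 are also the deeper RYGB livers: the difference was 1.56 among the deeper libraries (adjusted p = 0.0265) and -0.24 among the shallow (adjusted p = 0.535). The part of depth in this difference was not tested.

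Sgk1 (ENSMUSG00000019970, chr10:21882184-21999903) encodes a kinase that controls sodium channels and cell survival, and it is the member whose inner promoter holds the palindrome shown above. It was called in no tissue. In muscle the RYGB libraries (R1, R2, R4, R3) held 391.8, 446.8, 174.9 and 256.3 CPM and sham (W11, W12, W15, W3) held 111.7, 195.9, 118.4 and 169.3 CPM. Only R4 overlapped with sham, below W12 and above the other 3 sham libraries. The difference was 1.04 ± 0.31 (adjusted p = 0.593), and 0.84 without R2. In liver 3 RYGB libraries at 29.0 to 34.5 CPM lay above the sham range of 7.2 to 19.4 and 2 at 14.5 and 16.8 within it (0.79 ± 0.39, adjusted p = 0.169). The 3 high ones (R2, R3 and R4) are the shallow RYGB livers and the 2 others (R1 and R5) the deeper ones. Sham livers held 16.2 and 19.4 CPM in the shallow W11 and W14, and 7.2 and 14.2 in the deeper W15 and W3. The part of depth in this split was not tested.

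In the gut Sgk1 was high and widely spread. Jejunal RYGB libraries (R1, R2, R4, R5) held 178.5, 436.4, 38.3 and 1027.4 CPM against a sham range of 482.8 to 709.5 (-1.29 ± 0.74, adjusted p = 0.267). R1, R2 and R4 lay below every sham library and R5 above all. Without R5 the difference was -1.996 (adjusted p = 0.0498). As R5 was the RYGB library that ran the other way, leaving it out favours a call, and nothing is read from that fit. In duodenum the difference was -0.61 ± 1.06, and it turned to 0.53 without the libraries of over 1% pancreatic transcripts. Neither passed, and the second fit, over fewer libraries, called 0 genes of any kind.

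Ddit4 (ENSMUSG00000020108, chr10:59949669-59951834), also known as REDD1, encodes an inhibitor of mTORC1 that is induced by glucocorticoids, hypoxia and energy stress. It was the member with the smallest adjusted p in any tissue. Jejunal RYGB libraries (R1, R2, R4, R5) held 32.2, 42.7, 29.9 and 14.7 CPM, and sham libraries (W11, W12, W14, W15, W3) held 4.9, 5.3, 2.7, 3.7 and 7.7 CPM. The lowest RYGB library was above the highest sham library; the groups of 2 of 9 jejunal members did not overlap, against 14.3% of all genes in jejunum, and in both RYGB was above sham, as for 7.53% of genes. Ddit4 rose by 2.36 ± 0.32 (adjusted p = 0.00344) and stayed past the threshold under every alternative run, including each library left out (adjusted p between 0.000191 and 0.0179).

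Outside the jejunum Ddit4 was not called. Duodenum gave 0.85 ± 0.53 and ileum -0.28 ± 0.87. In WAT R1, R3 and R4 held 31.3, 30.6 and 49.1 CPM, all below the sham range of 72.8 to 135.1, while R2 held 218.0. The WAT difference was -0.72 ± 0.49 (adjusted p = 0.260) with R2 and -1.36 without it (adjusted p = 0.00177). As R2 was the RYGB library that ran the other way, leaving it out favours a call, and nothing is read from that fit. In muscle R2 held 277.6 CPM and the other 7 libraries 4.8 to 37.9 (0.65 ± 1.01).

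Cdkn1a (ENSMUSG00000023067, chr17:29090976-29100727) encodes p21, an inhibitor of the cell cycle that p53 and glucocorticoids both induce. It rose in jejunum. RYGB libraries (R1, R2, R4, R5) held 423.2, 220.8, 378.3 and 227.5 CPM and sham libraries (W11, W12, W14, W15, W3) held 104.4, 120.4, 113.1, 122.4 and 149.1 CPM, with no overlap. The difference was 1.30 ± 0.22 (adjusted p = 0.00721), and it passed under every alternative run (adjusted p between 0.00159 and 0.0290). The jejunal crypt and proliferation markers (13 of 15 listed) summed to 33.9 to 92.1 CPM in sham and 59.8 to 298.7 in RYGB, the leukocyte markers (11 of 16) to 148.4 to 633.1 and 102.9 to 970.7, and the enterocyte markers (10 of 10) to 50703 to 81121 and 55592 to 63878; Ccnb1 and Ascl2 were not listed. The part of these cells in the jejunal results was not tested.

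In liver Cdkn1a was at 3.6, 34.7, 3.7, 2.2 and 33.9 CPM in R1 to R5 and 1.4 to 5.4 in sham, so that R2 and R5 alone stood above (1.51 ± 0.75, adjusted p = 0.173). In WAT R2 held 285.6 CPM and the other RYGB libraries 39.1 to 62.0, within the sham range of 27.0 to 84.8. Muscle showed 91.7 and 139.5 CPM in R1 and R2 and 19.8 to 39.0 in the other 6 libraries (0.83 ± 0.60). Duodenum and ileum gave -0.08 ± 0.34 and -0.26 ± 0.42.

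**Figure D3:**
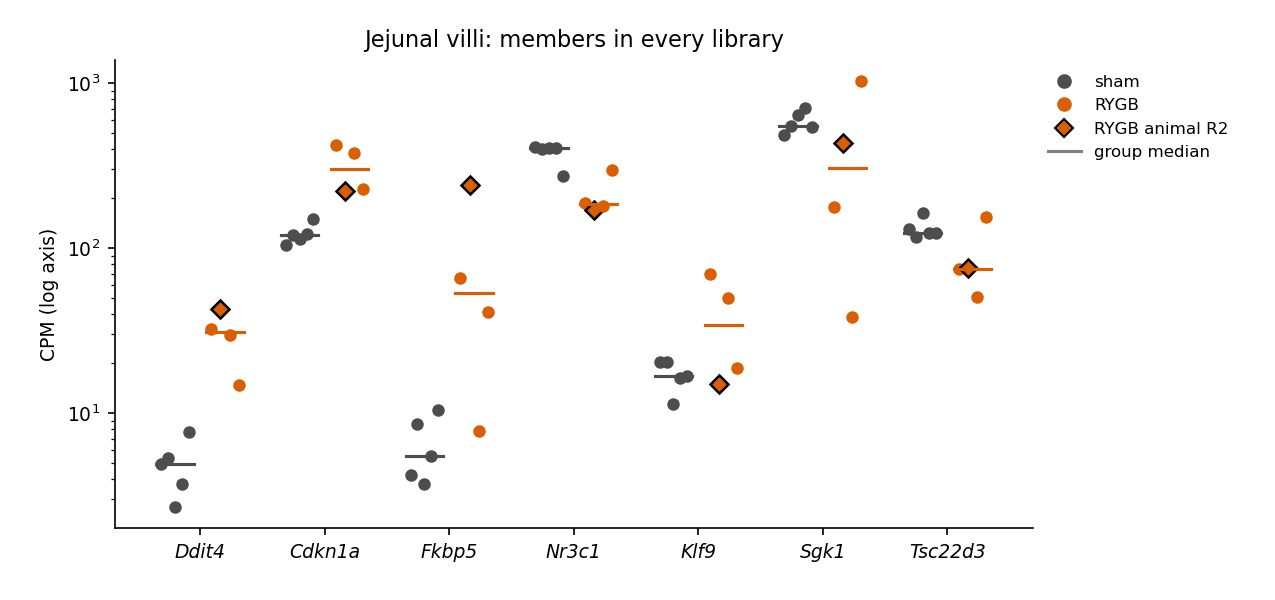
The 7 members shown (x axis) in each jejunal library, in CPM on a log axis; grey is sham, orange RYGB, lines are medians and the diamond is animal R2. Ddit4 and Cdkn1a are fully separate between the groups, Fkbp5 overlaps only through R4 at 7.8 CPM, and Sgk1 spans 38.3 to 1027.4 CPM among the RYGB libraries.

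Tat (ENSMUSG00000001670, chr8:109990437-109999803) encodes tyrosine aminotransferase, a classical glucocorticoid-inducible enzyme of the liver. RYGB livers (R1 to R5) held 585.8, 3423.7, 320.2, 1261.3 and 586.7 CPM, and sham livers (W11, W14, W15, W3) held 325.9, 298.0, 255.9 and 359.4 CPM. All RYGB livers but R3 lay above every sham liver. The difference of 1.48 ± 0.55 was not called (adjusted p = 0.0941), and it was 0.99 without R2 (adjusted p = 0.144). It was 1.84 among the shallow and 0.95 among the deeper libraries, neither called.

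In WAT Tat fell at a level near 1 CPM: RYGB R1 to R4 held 0.1, 0.4, 0.5 and 0.6 CPM and sham W11, W12, W14, W15 and W3 held 7.0, 1.8, 1.7, 2.2 and 0.5 CPM. The difference was -1.16 ± 0.40 (adjusted p = 0.0370), and W3 lay within the RYGB range. Tat met the authors' filter of 1 CPM in 4 libraries only through 4 sham libraries, so it had to be lower in RYGB to be listed as it is, and nothing is read from the call. The hepatocyte markers summed higher in the RYGB than in the sham WAT libraries, and their part in the WAT values of Tat was not tested. The call was lost without R1, R2 or R3, without sham W12, W14 or W15, and with limma's array weights (adjusted p = 0.112), and Tat was not tested at a mean CPM of at least 5. In jejunum Tat was at 2.6, 13.5, 10.3 and 0 CPM in R1, R2, R4 and R5 and 0.1 to 1.9 in sham (1.74 ± 0.70, adjusted p = 0.124; 2.51 without R5, adjusted p = 0.00535). There it met the filter of 1 CPM in 4 libraries only through R1, R2, R4 and W3, and leaving out R5 keeps these RYGB libraries. The direction of Tat in jejunum is thus not independent of the filter, and nothing is read from the fit without R5.

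**Figure D4:**
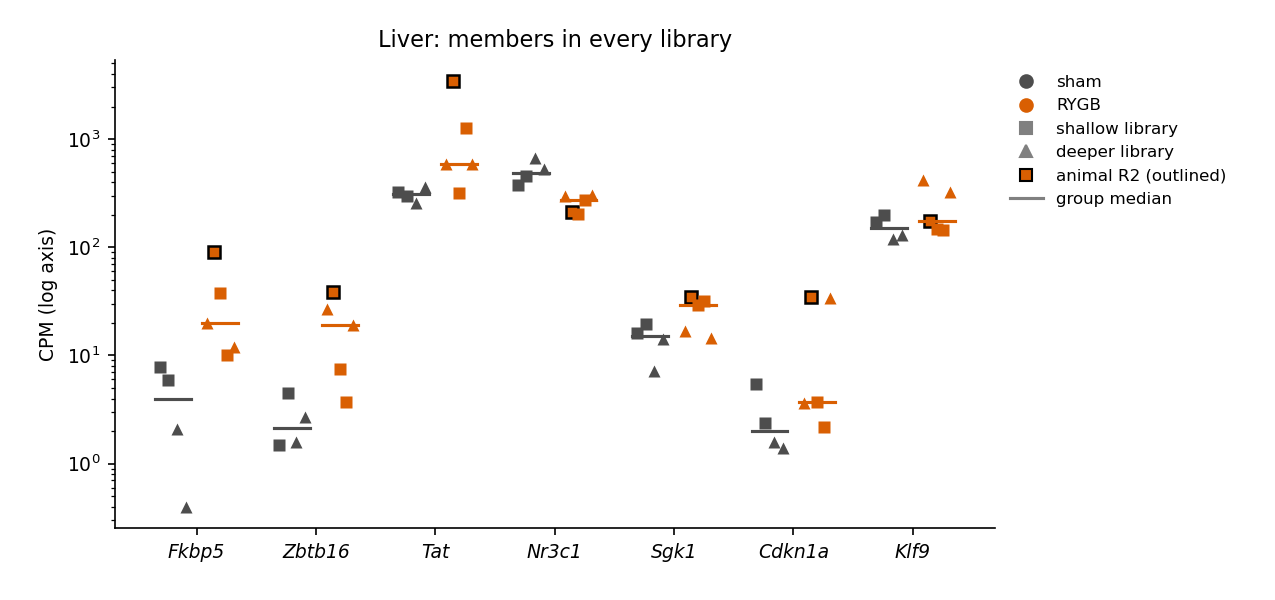
The 7 members shown (x axis) in each liver library, in CPM on a log axis; grey is sham, orange RYGB, squares are the 5 shallow and triangles the 4 deeper libraries, R2 is outlined, and lines are medians. Fkbp5 and Nr3c1 are separate between the groups in opposite directions, and R2 is the highest library for Fkbp5, Zbtb16, Tat, Sgk1 and Cdkn1a.

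The adipocyte markers in liver (7 of 10 listed; Plin1, Lep and Retn were not) summed to 1890.8 to 8700.5 CPM in sham and 56.4 to 3753.1 in RYGB. The leukocyte markers (6 of 16 listed) summed to 32.0 to 87.2 and 30.4 to 315.1. Hepatocyte markers (9 of 10) lay between 60058 and 72002 CPM in sham and 69542 and 133280 in RYGB. The part of these differences in the liver results was not tested.

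**Figure D5:**
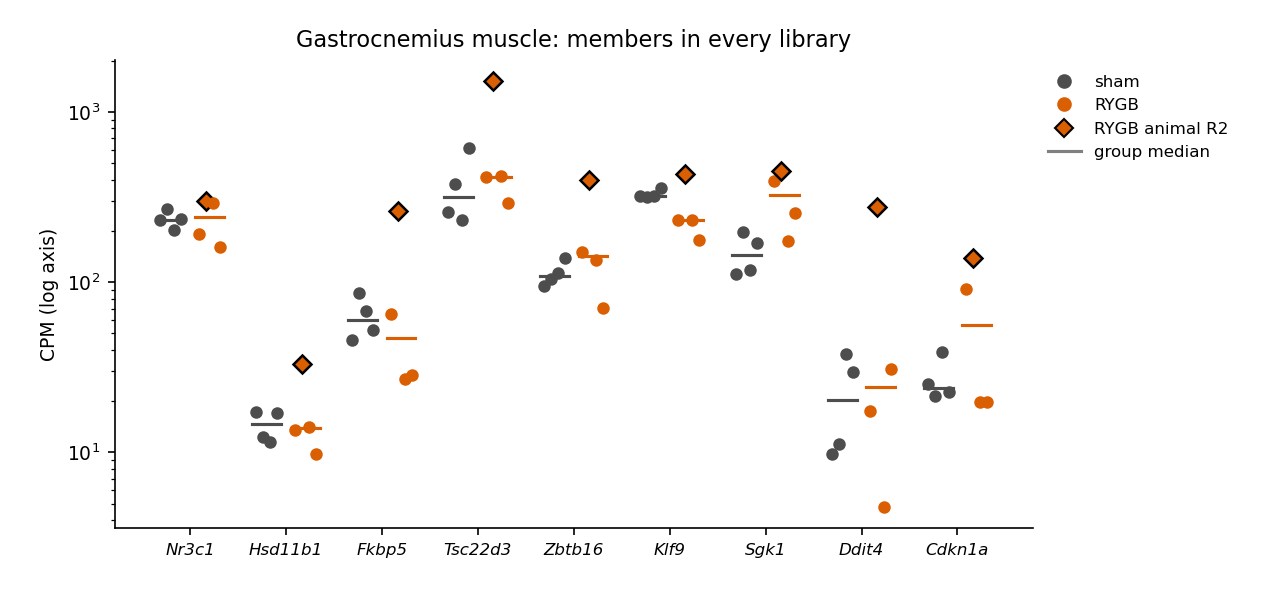
The 9 members listed in muscle (x axis) in each library, in CPM on a log axis; grey is sham, orange RYGB, lines are medians and the diamond is animal R2. R2 is the highest library for all 9; for Klf9 the other 3 RYGB libraries, at 177.4 to 232.7 CPM, lie below every sham library.

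Differences between tissues were tested in 5 joint fits over the animals that gave both tissues. WAT differed from liver (4 sham and 4 RYGB animals, 12.9% of 9707 genes called) for 3 of 9 members: Tat by -2.83 ± 0.71 (adjusted p = 0.0242), Fkbp5 by -2.83 ± 0.82 (adjusted p = 0.0409) and Zbtb16 by -2.21 ± 0.55 (adjusted p = 0.0229). As Tat was listed in WAT only through sham libraries, its direction there is not independent of the filter, and nothing is read from its call. All 3 lost the call without R2 (-2.21, -2.93 and -1.86; adjusted p = 0.0746, 0.0892 and 0.0761), and all 3 without W15. Zbtb16 also lost it without W3, Fkbp5 without R3, R4 or W3 and with a pseudocount of 0.1, and Tat with median-of-ratios scaling (adjusted p from 0.0583 to 0.124). Muscle against liver gave no member call (0.303% of genes called), with Fkbp5 nearest at -3.01 ± 0.72 (adjusted p = 0.0584). Jejunum against liver gave none either (0.0673% of genes called), and the difference for Fkbp5 there was 0.41 ± 0.81. These fits share libraries and are not independent.

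In sham mice the members had distinct tissue patterns. Fkbp5 was highest in WAT (69.9 ± 24.1 CPM, SD, n = 5) and muscle (62.8 ± 17.8, n = 4), whose ranges overlapped and lay above the remaining tissues. It was 18.7 ± 11.1 in duodenum, 16.0 ± 9.91 in ileum, 6.48 ± 2.90 in jejunum (each n = 5) and 4.08 ± 3.43 in liver (n = 4), and each neighbour in this order overlapped. Nr3c1 ran from 507 ± 124 CPM in liver to 234 ± 26.7 in muscle with overlap at every step. Klf9 was highest in muscle (329 ± 19.8) without overlap with WAT, the next in order at 202 ± 37.3. Sgk1 and Cdkn1a were highest in ileum (732 ± 406 and 306 ± 113) and lowest in liver (14.3 ± 5.17 and 2.70 ± 1.85). Zbtb16 was at least 71.9 CPM in each sham WAT and muscle library and at most 5.1 CPM in sham liver and ileum. Per kilobase of exon, the sham liver levels were 129 CPM per kb for Tat, 110 for Hsd11b1 and 66.0 for Nr3c1, and 0.43 for Fkbp5 and 0.49 for Zbtb16.

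The other genes of the pathway were taken as a list of 24 genes for chaperones, coregulators and steroid metabolism and a list of 50 other reported target genes. In jejunum 5 of 22 listed genes of the first rose and 1 fell, and 1 of 41 of the second rose and 5 fell, in a table where 6.32% of genes rose and 6.29% fell. H6pd, which supplies the NADPH for the Hsd11b1 enzyme, rose from 13.2 ± 3.09 to 46.0 ± 27.9 CPM (SD, n = 5 and 4; 1.57 ± 0.35, adjusted p = 0.0199). Lpin1, a phosphatidate phosphatase and coregulator, rose from 2.14 ± 0.43 to 12.4 ± 8.65 CPM (1.85 ± 0.40, adjusted p = 0.0176). Mertk, a receptor for dying cells, fell by 1.05 ± 0.25 (adjusted p = 0.0222). The H6pd call was lost without sham W11 or W12 or RYGB R4 (adjusted p from 0.0521 to 0.0542), and that of Mertk without sham W11, W12 or W15 or RYGB R4 (adjusted p from 0.0505 to 0.0602). Dbp, a clock-driven transcription factor, fell by 3.53 ± 0.58 (adjusted p = 0.00746), from 31.4 to 95.3 CPM in sham to 22.8, 2.8, 2.0 and 2.6 in R1, R2, R4 and R5.

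Nr3c2, the mineralocorticoid receptor, which also binds corticosterone, fell in jejunum, liver and WAT. In jejunum it held 67.6, 43.6, 40.8 and 44.0 CPM in R1, R2, R4 and R5 against 67.0 to 129.3 in sham (-1.01 ± 0.21, adjusted p = 0.0169). In liver the RYGB libraries held 6.6, 4.7, 10.4, 18.5 and 20.7 CPM, and sham held 65.9, 58.0, 52.9 and 47.1, with no overlap (-2.29 ± 0.42, adjusted p = 0.0302). That liver difference was -2.54 among the shallow (adjusted p = 0.0323) and -1.99 among the deeper libraries (adjusted p = 0.0557), and it missed the threshold without R2, R3, R4, W14, W15 or W3 in turn (-2.48 to -2.03, adjusted p from 0.0517 to 0.12). In WAT it was 6.5, 5.8, 13.1 and 12.9 CPM in R1 to R4 against 21.0 to 26.3 in sham (-1.34 ± 0.24, adjusted p = 0.00179); WAT Nr3c2 was named after its values were seen.

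In liver 1 of 23 listed genes of the first list rose and 1 fell, and 2 of 43 of the second rose and 1 fell, near the 2.03% of all genes that rose and 2.6% that fell. G6pc, the last enzyme of glucose output, rose from 66.9 ± 47.8 to 363 ± 260 CPM (SD, n = 4 and 5; 2.52 ± 0.65, adjusted p = 0.0484). Sesn1, a stress-induced regulator of mTORC1, rose from 5.25 ± 3.26 to 18.5 ± 5.02 CPM (1.77 ± 0.43, adjusted p = 0.0450). Hspa8, a chaperone that loads the receptor, rose by 2.90 ± 0.71 (adjusted p = 0.0453), although R1 at 51.6 CPM overlapped with sham at 3.8 to 69.2. Per2, a clock gene with a glucocorticoid response element, fell from 30.2 ± 11.1 to 9.12 ± 4.16 CPM (-1.64 ± 0.42, adjusted p = 0.0478). Each of these 4 calls was lost when any of R2, R3, R4, W14, W15 or W3 was left out, with adjusted p from 0.0660 to 0.164. R2 lay within the range of the other RYGB livers for all 4, and without it the differences were 2.72 for G6pc, 1.73 for Sesn1, 2.78 for Hspa8 and -1.73 for Per2.

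In WAT 5 of 23 listed genes of the first list rose and 7 fell, and 7 of 46 of the second rose and 17 fell, in a table where 14.3% of genes rose and 26.3% fell. Rgs2, a regulator of G-protein signalling, rose from 12.8 ± 7.10 to 285 ± 319 CPM (SD, n = 5 and 4; 3.95 ± 0.53, adjusted p = 0.000464), with R2 at 763.3 and the others at 113.3 to 139.7. Anxa1, an anti-inflammatory target, fell by 2.33 ± 0.34 (adjusted p = 0.000776). Irs2, an adaptor of the insulin receptor, Foxo1, a transcription factor that insulin signalling keeps out of the nucleus, and Arrdc3, an arrestin-domain adaptor, fell by 1.53 ± 0.20, 0.76 ± 0.12 and 1.73 ± 0.28 (adjusted p = 0.000444, 0.00102 and 0.00119). The smooth muscle markers in WAT (4 of 6 listed) summed to 380.7 to 1161 CPM in sham and 91.6 to 199.1 in RYGB, and the adipocyte markers (10 of 10) to 30472 to 44217 and 47804 to 95068. Their part in the WAT results was not tested.

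In duodenum 1 of 22 genes of the first list rose and 0 of 40 of the second changed, in a table where 0.128% of genes rose and 0.22% fell. Every RYGB library lay above every sham library for 5.88% of duodenal genes, Hsp90aa1 among them. Hsp90aa1, the inducible form of the chaperone that holds the unliganded receptor, stood at 67.2, 61.0, 46.8 and 58.6 CPM in R2 to R5 and 22.0, 20.7, 18.2, 22.5 and 31.7 in sham, with no overlap (1.32 ± 0.20, adjusted p = 0.0240). The call was lost without sham W11, W12, W14 or W15 or RYGB R2, R3 or R5 (differences of 1.24 to 1.32, adjusted p from 0.0554 to 0.12). It was also lost without the libraries of over 1% pancreatic transcripts (1.06, adjusted p = 0.939), a fit over fewer libraries that called 0 genes of any kind. In ileum and muscle no gene of either list was called. The smallest p there belonged in ileum to the metallothionein gene Mt2, at 60.5 and 56.1 CPM in R2 and R5 and 1.1 to 10.4 in sham (4.14 ± 0.71, adjusted p = 0.935; 4.58 without the W15 library, adjusted p = 0.00452), and to Tsc22d1 (-1.21 ± 0.26, adjusted p = 0.935). In muscle it belonged to the glycogen-targeting subunit gene Ppp1r3c (1.13 ± 0.36) and the cell cycle inhibitor gene Cdkn1c (0.67 ± 0.23), both with an adjusted p of 0.595.

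Across the 51 libraries, after the mean of each tissue and operation group was taken away, the gene most like Fkbp5 among 8227 genes listed in all tables was Prodh, the first enzyme of proline breakdown, with a Pearson r of 0.72. Mt2 (0.65), Mt1 (0.62), Herpud1 (0.61) and Ifngr1 (0.58) followed. The libraries of an animal share that animal, and R2 carried part of the likeness: over the 45 libraries without R2 the values were 0.62 for Prodh, 0.55 for Mt2, 0.48 for Mt1, 0.38 for Herpud1 and 0.27 for Ifngr1. Of the other members, Sgk1 had an r of 0.48 (0.39 without R2), Tsc22d3 0.34 (0.09), Cdkn1a 0.24 (0.0042), Klf9 0.10 (0.26) and Nr3c1 -0.39 (-0.12).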

How the data were processed

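Gene-level CPM tables, 1 per tissue and rounded to 1 decimal, were used as the authors deposited them. HTSeq and GRCm38 are named per the submitters' processing notes; for the aligner, the annotation and strand, nothing was given in the sources used here. Every gene in a deposited table reached 1 CPM in a number of libraries equal to the size of the smaller group, as checked. In ileum and WAT 339 and 374 repeated lines were dropped, and 2 and 6 lines without an identifier were left out in ileum and liver. Groups came from titles and surgery labels, animals from the descriptions; p-values reflect how these animals differ from each other.

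Per tissue, log2(CPM + 1) was fitted with limma 3.58.1 in R 4.3.3 (trend and robust options, surgery as the only term, two-sided, Benjamini-Hochberg over all genes); tissues were compared by a tissue-by-surgery term with the animal as a fixed block. The fits were tested on simulated data. Described were all members; from the pathway lists up to 5 called genes of smallest adjusted p per tissue, or 2 of smallest p; and the 5 genes most like Fkbp5. Members and lists were chosen with earlier results of these data known. Alternatives were another scaling, a pseudocount of 0.1, a mean CPM of at least 5, a replicate block, array weights and left-out libraries; the liver depth groups and the duodenum without pancreas-rich libraries were added after seeing the data.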

Additional observations from a re-analysis of the deposited data

Results flagged for a closer look

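Of 98 groups of 4 or 5 libraries tested on log2(CPM + 1) for a library far from the rest (gap to the nearest library over the whole range of the group), 6 passed Dixon's 95% limit; chance gives about 1 in 20. On this scale 0 of the 6 were from R2 and 4 from the sham animal W3; on the CPM scale, tried after seeing the data, 15 groups passed, 6 of them through R2 and 6 through W3. Gap ratios below are on the log2 scale. Sgk1 was low in the duodenum of W3 (98.0 CPM, gap ratio 0.783), and Nr3c1 was low in its jejunum (273.5 CPM, 0.905). Klf9 was high in the muscle of W3 (358.9 CPM, 0.894), as was Hsd11b1 in its jejunum (3.2 CPM, 0.721). Tsc22d3 was low in the liver of R3 (31.9 CPM, 0.74), and Cdkn1a was high in the duodenum of R4 (241.5 CPM, 0.854).

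The RYGB difference of 5 member entries differed between tissues by a test of that difference in limma. It was lower in jejunum than in duodenum for Nr3c1 (-1.16) and lower in WAT than in liver for Tat (-2.83), Fkbp5 (-2.83) and Zbtb16 (-2.21). It was higher in muscle than in WAT for Tsc22d3 (1.23). Of all genes, 2.4% were called for jejunum minus duodenum, 12.9% for WAT minus liver and 12.8% for muscle minus WAT. Jejunum minus liver (0.0673% of genes called) and muscle minus liver (0.303%) called no member. Nothing is read from the call of Tat, which was listed in WAT only through sham libraries. Each of the 5 lost its call without R2, where the differences were -1.28 for Nr3c1, -2.21 for Tat, -2.93 for Fkbp5, -1.86 for Zbtb16 and 1.02 for Tsc22d3, and each also without at least 1 other animal: W15 for Tat, and 2 to 5 others for the remaining 4.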

How the results depend on the processing

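Of the 755 member values recomputed under alternatives, 652 kept direction and side of the threshold, 27 lost the call, 19 gained it and 57 changed sign, none of them of a member called in the report; the causes were not tested. Duodenum called 38 genes, and 105 with a mean CPM of at least 5, 2140 with array weights and 0 without libraries of over 1% pancreatic transcripts, where Sgk1 was 0.53. With the mean CPM filter or array weights WAT called 0 members; Tat was not tested under the filter. With array weights ileum called 1 gene, liver 3258 genes and 3 members, and muscle 13 genes; Hsd11b1 became 0.145 in jejunum, -0.33 in liver and -0.128 in muscle, Tat -0.041 and Ddit4 0.401 in ileum, and Fkbp5 0.002 in muscle. Liver (476 genes, 1 member) called 992 genes and 2 members with median-of-ratios scaling, 0 members with a pseudocount of 0.1 and 3 with the mean CPM filter. It called 2380 genes and 3 members with depth as a term, 972 and 0 in shallow libraries and 718 and 3 in deeper ones. There Tsc22d3 was 0.005 with depth as a term and 0.311 in deeper libraries, and shallow libraries gave -0.548 for Hsd11b1 and -0.243 for Klf9. Scaling gave -0.005 for Hsd11b1 in liver, and 0.018 for Hsd11b1, 0.105 for Sgk1 and 0.063 for Klf9 in WAT. With a pseudocount of 0.1, Tat was -0.57 in ileum and muscle called 1 gene. Jejunum minus liver called 21 genes with scaling, and muscle minus liver 789 with scaling and 5 with a pseudocount of 0.1. Replicate numbers name different animals in the groups (correlations of same-numbered libraries from -0.352 to 0.556), so the block is no pairing. With the replicate block 441 genes were called in duodenum, 474 in jejunum, 597 in ileum, 7 in liver with 0 members, and 2 in muscle; Cdkn1a was 0.199 in duodenum, Hsd11b1 0.157 in jejunum and 0 in ileum, Ddit4 0.804 in ileum and Sgk1 0.012 in WAT, and the jejunal H6pd call was lost (adjusted p = 0.0537). Leaving out each library in turn gave ranges, from lowest to highest, as follows. Genes called ranged from 1 to 982 in duodenum, 484 to 2258 in jejunum, 0 to 46 in ileum, 3 to 2253 in liver and 0 to 24 in muscle, and members called from 2 to 7 in jejunum, 0 to 3 in liver and 0 to 2 in WAT. For differences between tissues, leaving out each animal gave 59 to 312 genes for jejunum minus duodenum, 0 to 121 for jejunum minus liver, 378 to 2189 for WAT minus liver, 1 to 2424 for muscle minus liver and 517 to 3641 for muscle minus WAT. Uncalled members changed sign within these ranges. In duodenum they were -0.333 to 0.199 for Cdkn1a, -0.042 to 1.987 for Fkbp5 and -1.322 to 0.322 for Sgk1, and in jejunum -0.29 to 0.157 for Hsd11b1. In ileum they were -1.108 to 0.553 for Ddit4, -1.629 to 2.061 for Tat, -0.683 to 3.224 for Zbtb16 and -0.213 to 0.694 for Nr3c1. In liver they were -0.231 to 0.392 for Tsc22d3 and -0.107 to 0.5 for Hsd11b1. In WAT they were -0.566 to 0.708 for Fkbp5, -0.331 to 0.111 for Sgk1, -0.526 to 0.13 for Hsd11b1, -0.314 to 0.094 for Klf9 and -0.622 to 0.379 for Zbtb16. In muscle they were -0.711 to 0.371 for Fkbp5, -0.171 to 0.132 for Nr3c1, -0.198 to 0.352 for Hsd11b1 and -0.397 to 1.465 for Ddit4. Groups of 2 to 5 libraries, and an unknown depth in most of them, limit what could be detected.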

Other observations

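In muscle, 4 genes of protein breakdown and fuel choice that glucocorticoids are known to raise were highest in the RYGB animal R2. They were picked after their values were seen and were not tested, and R2 was the highest library for 23.6% of all muscle genes. Outside muscle R2 was the highest library for these genes only for Pdk4 in ileum (95.9 CPM against 28.8 to 86.5). For Fbxo32 in WAT it was the lowest (27.9 CPM against 29.6 to 62.1). Trim63, a ubiquitin ligase of muscle wasting, stood at 9038.3 CPM in R2, 450.6, 499.2 and 567.3 in R1, R4 and R3, and 842.8 to 1427.9 in sham. Fbxo32, the other well-known ligase of that kind, stood at 5779.7 CPM in R2, 740.8, 873.1 and 1002.4 in R1, R4 and R3, and 2550.2 to 3458.2 in sham. For both, the other 3 RYGB muscles thus lay below every sham muscle. Foxo1, a transcription factor upstream of both, stood at 611.6 CPM in R2 against 39.3 to 124.3 in the other 7 libraries, and Pdk4, a brake on glucose oxidation, at 10473 CPM against 2065.6 to 7511.4.

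The metallothionein gene Mt2, which zinc also induces, was highest in R2 in every tissue but jejunum, where R5 held 156.8 CPM and R2 24.5. It stood at 943.7 CPM against 8.2 to 34.8 in the other WAT libraries, at 80.5 against 1.6 to 8.6 in muscle, at 754.7 against 1.7 to 442.1 in liver and at 123.2 against 1.2 to 16.1 in duodenum. Prodh was highest in R2 in duodenum (61.6 CPM against 6.3 to 19.6), jejunum (46.4 against 3.1 to 27.8), WAT (51.7 against 11.6 to 42.5) and muscle (9.6 against 3.0 to 5.2), but not in ileum or liver.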
